A study of Mus musculus with 4 samples.

Results

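Retinoic acid synthesis and response was described here through 10 genes that make, break down, bind or sense retinoic acid. They are *Aldh1a1*, *Aldh1a2*, *Aldh1a3*, *Cyp26a1*, *Cyp26b1*, *Crabp1*, *Crabp2*, *Rara*, *Rarb* and *Rarg*, chosen by symbol from the 24637 genes of the table, and all 10 were found. Polyadenylated RNA was sequenced in 4 mouse libraries, 2 labelled WT (*Taf4*+/+) and 2 labelled *Taf4a*-/-. They came from embryonic stem cell (ESC) lines derived from blastocysts of *Taf4a*+/- crosses, in which the null allele lacks exons 11 and 12 of *Taf4a*, a subunit of the general transcription factor TFIID. All 4 were cultured on inactivated feeder fibroblasts with LIF, differentiated for 5 days as embryoid bodies in serum and then for 9 days on gelatin, and labelled cardiac cells. The protocol names no added retinoic acid. Each genotype had 2 lines, but no source says which line gave which library, so the p-values measure only the spread between these libraries.

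Retinoic acid is a small diffusible signal made from vitamin A. Retinol is oxidised reversibly to retinaldehyde, retinaldehyde dehydrogenases of the ALDH1A family oxidise this irreversibly to retinoic acid, and cytochromes of the CYP26 family degrade it. The cellular binding proteins CRABP1 and CRABP2 carry it in the cytoplasm. In the nucleus it binds the receptors RARα, RARβ and RARγ, which pair with RXR proteins on direct repeats of a short half-site in the DNA. In the embryo this signal patterns the hindbrain and trunk and sets the posterior limit of the heart field, and synthesis by ALDH1A2 in mesoderm is its main early source.

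The 24251499 and 21732746 reads counted on genes in the libraries labelled *Taf4a*-/- and the 27733034 and 24537026 in WT gave every member at least 54 reads in each library. *Taf4a* had 889 and 678.5 normalized counts in WT and was higher, at 1722 and 1799, in the libraries labelled *Taf4a*-/- (log2 fold change 1.18, SE 0.16, adjusted p = 0.00569). The table counts reads over the whole gene, so reads on the deleted exons were not separated. This count therefore cannot check the labels. In both genotypes the Y-linked *Eif2s3y* was read in replicate 1 (1688 and 309 normalized counts) and listed at 0 in replicate 2. *Xist*, transcribed from the inactive X chromosome, had 6.14 and 7.27 normalized counts in WT and 217 and 6470.0 in the others.

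Among the 10 genes, 3 were higher (*Aldh1a2*, *Crabp2* and *Cyp26b1*) and 2 were lower (*Rarb* and *Cyp26a1*) than in WT in the libraries labelled *Taf4a*-/-. Calls rest on limma's adjusted p under 0.05 (Benjamini-Hochberg over 16926 genes whose mean reached 10 normalized counts), and all 10 members passed this filter. Of all genes tested, 11.3% were called higher and 17.3% lower, 28.6% in all. The median log2 fold change was 0.12 over the 10 genes and -0.01 over all genes tested. The genotypes did not overlap for 4 members that were higher and 3 that were lower, 7 in all, which was also so for 34.5%, 36.6% and 71.1% of all genes tested. Fold changes are *Taf4a*-/- minus WT on log2(normalized counts + 1). Each family held members that differed in opposite directions or of which 1 was called and another was not, as the plot of all 10 genes by library shows. These are bulk samples, in which fewer cells of a type and less RNA per cell cannot be told apart.

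**Figure D1:**
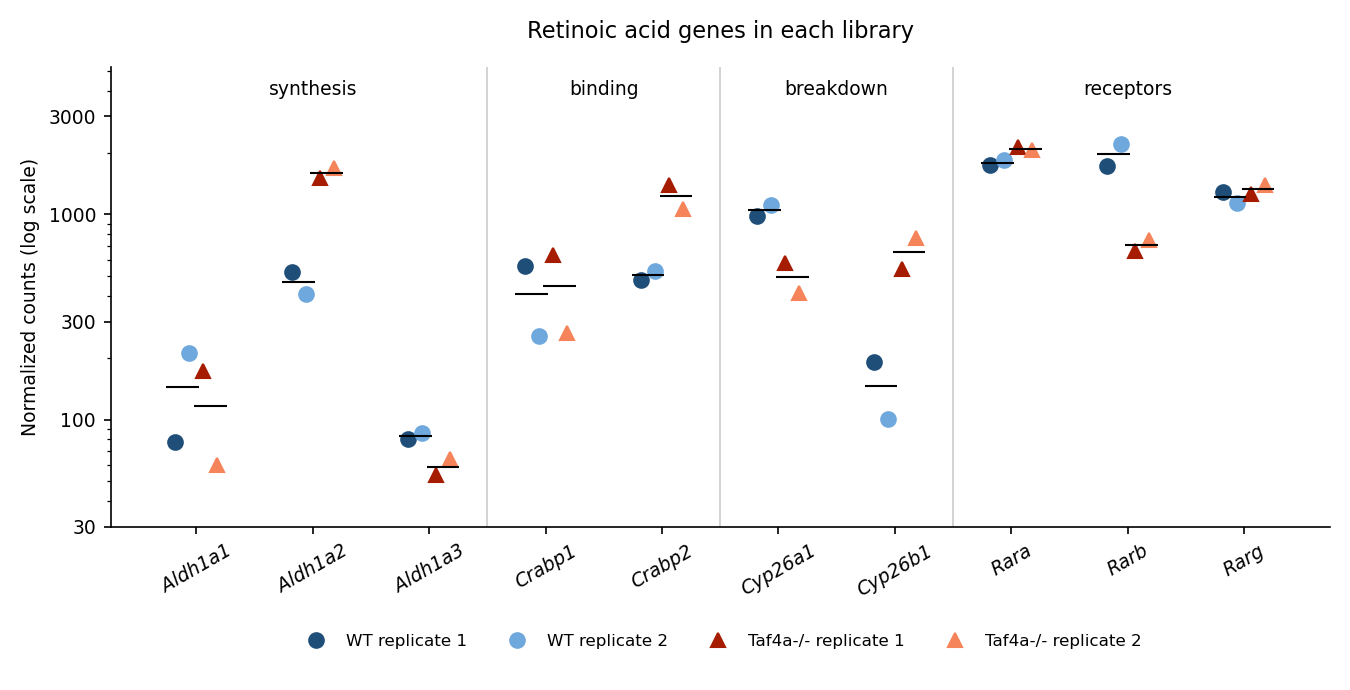
Normalized counts (log axis) of the 10 retinoic acid genes in each of the 4 libraries, with 1 point per library and a bar at the mean of each genotype. *Aldh1a2*, *Crabp2* and *Cyp26b1* lie higher and *Rarb* and *Cyp26a1* lower in both libraries labelled *Taf4a*-/-, while the points of *Aldh1a1*, *Crabp1* and *Rarg* overlap between genotypes.

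Promoter sequences are shown first because direct repeats near the start are a known feature of receptor targets, and *Rarb* and *Cyp26a1*, the 2 members called lower, are textbook targets of the receptors. RefSeq windows (GRCm38.p6) from 250 bases before to 50 bases after a gene's start were matched for 8 members, leaving *Crabp2* and *Aldh1a3*. They were searched on both strands for a DR5, a pair of half-sites in the same orientation with 5 bases between them. A half-site was AGGTCA or AGTTCA. The forms GGGTCA and GGTTCA also counted. A DR5 stood in 32 of 32851 promoters of all genes (0.0974%). Among the 8 members it stood in *Rarb*, on the strand of the gene at positions -53 to -37 from the start, and in *Cyp26a1*, on the opposite strand at -32 to -16. The same search with 2 bases between the half-sites (DR2) matched 0.268% of all promoters and no member. Repeats outside these windows, with other spacings or with other half-sites were not searched, so a member without a match may still have such a repeat. The windows below are the 120 bases before the start, 5′ to 3′ on the strand of the gene, with the half-sites of a DR5 in capitals. The 2 without a DR5 belong to *Cyp26b1* and *Aldh1a2*, members called higher, and are printed for comparison. The windows of *Rara*, *Rarg*, *Aldh1a1* and *Crabp1*, which were not called, held no DR5 either. Whether the repeat has a part in the direction of a change was not tested.
Rarb: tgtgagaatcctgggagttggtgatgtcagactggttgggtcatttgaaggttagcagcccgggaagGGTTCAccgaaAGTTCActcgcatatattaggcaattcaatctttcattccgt
Cyp26a1: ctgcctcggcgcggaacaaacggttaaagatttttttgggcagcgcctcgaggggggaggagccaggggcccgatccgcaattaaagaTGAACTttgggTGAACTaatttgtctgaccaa
Cyp26b1: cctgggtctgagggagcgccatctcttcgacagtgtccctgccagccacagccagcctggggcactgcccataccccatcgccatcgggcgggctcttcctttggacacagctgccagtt
Aldh1a2: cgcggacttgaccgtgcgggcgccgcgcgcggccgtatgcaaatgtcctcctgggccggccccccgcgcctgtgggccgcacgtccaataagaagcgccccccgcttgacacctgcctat

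Each of these windows had 1 exact match on its chromosome of NCBIM37, the build of the deposited table, at chr14:17407991-17408110 on the minus strand for *Rarb*, chr19:37772178-37772297 on the plus strand for *Cyp26a1*, chr6:84543805-84543924 on the minus strand for *Cyp26b1* and chr9:71063476-71063595 on the plus strand for *Aldh1a2*. The *Rarb* window lies inside the annotated span of the gene, at the start of a shorter transcript. The half-sites of *Cyp26a1* read as TGAACT on the printed strand, and on the opposite strand the repeat is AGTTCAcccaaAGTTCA. The repeat of *Rarb* is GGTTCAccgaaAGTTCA. A match of letters is a description of the sequence, and no binding was measured.

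Synthesis genes differed among themselves. *Aldh1a2* (ENSMUSG00000013584, chr9:71063596-71144050, plus strand), which encodes the main retinaldehyde dehydrogenase of embryonic mesoderm, had 522 and 410.4 normalized counts in WT and 1511 and 1676 in the libraries labelled *Taf4a*-/-, replicate 1 being given first here and for all genes. Both of the latter lay above both WT libraries. Its mean rose 3.42-fold, from 466 ± 78.6 to 1593 ± 117 (SD, n = 2 each; log2 fold change 1.78, SE 0.16, adjusted p = 0.00204).

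*Aldh1a1* (chr19:20676451-20717952, plus strand), the enzyme known from the dorsal retina and adult tissues, had 78.0 and 209.9 normalized counts in WT and 173 and 59.7 in the libraries labelled *Taf4a*-/-. The 2 libraries of each genotype differed more than the genotypes did, and the 95% interval of the log2 fold change ran from -1.88 to 1.22 (adjusted p = 0.724). *Aldh1a3* (chr7:73535778-73572403, minus strand), known from the ventral retina and nasal region, had 80.7 and 86.2 normalized counts in WT and 53.8 and 64.1 in the libraries labelled *Taf4a*-/-. The genotypes did not overlap, but the difference of -0.50 did not pass the test (SE 0.28, adjusted p = 0.232).

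Per kilobase of merged exons, the 3 *Aldh1a* genes summed to 286 and 302 normalized counts in WT and 763 and 783 in the libraries labelled *Taf4a*-/-. *Aldh1a2* made up 80.6% and 60.0% of this sum in WT and 87.4% and 94.5% in the others. It was thus the leading synthesis gene per length in all 4 libraries. The shares of *Aldh1a3* were 6.11% and 6.18% in WT and 1.53% and 1.77% in the others, the lowest of the 3 in every library.

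Breakdown genes were called in opposite directions. *Cyp26a1* (ENSMUSG00000024987, chr19:37772298-37776018, plus strand) encodes the CYP26 enzyme whose gene is itself switched on by retinoic acid. It had 984 and 1112 normalized counts in WT and 581 and 411 in the libraries labelled *Taf4a*-/-, with no overlap. The mean fell 2.11-fold, from 1048 ± 90.6 to 496 ± 120.2 (SD, n = 2 each; log2 fold change -1.09, SE 0.20, adjusted p = 0.0131). The call was lost without WT replicate 2 (log2 fold change -1.01) and with no variance trend in limma (adjusted p = 0.0518). Here and for all genes, a fit without 1 library leaves 1 library in that genotype. A call lost in such a fit therefore need not mean a smaller change.

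*Cyp26b1* (ENSMUSG00000063415, chr6:84521938-84543740, minus strand), the CYP26 enzyme known from hindbrain, limb bud and gonad, had 190.2 and 101 normalized counts in WT and 539 and 764 in the libraries labelled *Taf4a*-/-. All values of the latter were above both WT values. The mean rose 4.48-fold, from 146 ± 63.3 to 652 ± 159 (SD, n = 2 each; log2 fold change 2.20, SE 0.34, adjusted p = 0.00811), the largest fold change of the 10 genes.

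The sum of both *Cyp26* genes per kilobase was 596 and 649 normalized counts in WT and 445 and 398 in the libraries labelled *Taf4a*-/-. *Cyp26b1* made up 6.94% and 3.38% of it in WT and 26.3% and 41.7% in the others, so that *Cyp26a1* remained the higher of the pair per length in every library. *Cyp26c1*, the other member of the family, had 74.5 and 23.9 normalized counts in WT and 27.4 and 17.7 in the libraries labelled *Taf4a*-/- and did not pass the test (log2 fold change -0.91, SE 0.60, adjusted p = 0.291).

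Of the binding proteins, *Crabp2* was called and *Crabp1* was not. *Crabp2* (ENSMUSG00000004885, chr3:87752588-87757298, plus strand) encodes the protein that delivers retinoic acid to its receptors in the nucleus. It had 480.4 and 529.9 normalized counts in WT and 1384 and 1061 in the libraries labelled *Taf4a*-/-, without overlap. The mean rose 2.42-fold, from 505 ± 35.0 to 1222 ± 229 (SD, n = 2 each; log2 fold change 1.26, SE 0.17, adjusted p = 0.0056).

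*Crabp1* (chr9:54612555-54620917, plus strand), whose product holds retinoic acid in the cytoplasm, had 563 and 257 normalized counts in WT and 636 and 263 in the libraries labelled *Taf4a*-/-. It was higher in replicate 1 than in replicate 2 of both genotypes, by 1.13 (log2) in WT and 1.27 in the others. The genotypes overlapped (log2 fold change 0.11, SE 0.51, adjusted p = 0.891), and the 95% interval from -1.13 to 1.34 would hold a change of more than 2-fold in either direction. With a block for the replicate number in limma, the SE was 0.19. Replicate 1 of both genotypes also carried the Y-linked reads, and the part of this in *Crabp1* was not tested. Per kilobase, *Crabp2* made up 34.1% and 55.6% of the sum of both genes in WT and 56.9% and 71.0% in the libraries labelled *Taf4a*-/-.

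Of the receptors, *Rarb* was called lower, while *Rara* and *Rarg* did not pass the test. *Rarb* (ENSMUSG00000017491, chr14:17263356-17651381, minus strand), the receptor gene that is itself induced by retinoic acid, had 1723 and 2209 normalized counts in WT and 661 and 753 in the libraries labelled *Taf4a*-/-. The lower WT value was above both of the others. The mean fell 2.78-fold, from 1966 ± 344 to 707 ± 65.3 (SD, n = 2 each; log2 fold change -1.47, SE 0.16, adjusted p = 0.00337).

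*Rara* (chr11:98789132-98836256, plus strand), the most widely expressed receptor, had 1736 and 1836 normalized counts in WT and 2138 and 2048 in the libraries labelled *Taf4a*-/-. These did not overlap, but the log2 fold change of 0.23 (SE 0.11, adjusted p = 0.175) did not pass the test, and its 95% interval ran from -0.05 to 0.50. *Rarg* (chr15:102065369-102087948, minus strand), known from mesoderm and skin, had 1280.0 and 1142 normalized counts in WT and 1262 and 1394 in the others. Its values overlapped between genotypes, with a 95% interval of the log2 fold change from -0.19 to 0.45 (adjusted p = 0.473).

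The sum of the 3 receptors per kilobase was 1214 and 1350.0 normalized counts in WT and 975 and 1016 in the libraries labelled *Taf4a*-/-. *Rarb* made up 43.1% and 49.7% of it in WT, the largest share of the 3, and 20.6% and 22.5% in the others, the smallest. *Rara* made up 31.3% and 29.7% in WT and 47.9% and 44.1% in the libraries labelled *Taf4a*-/-. With the longest transcript of each gene in place of its merged exons, the mean share of *Rarb* was 40.7% in WT and 17.9% in the others, in the same order.

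**Figure D2:**
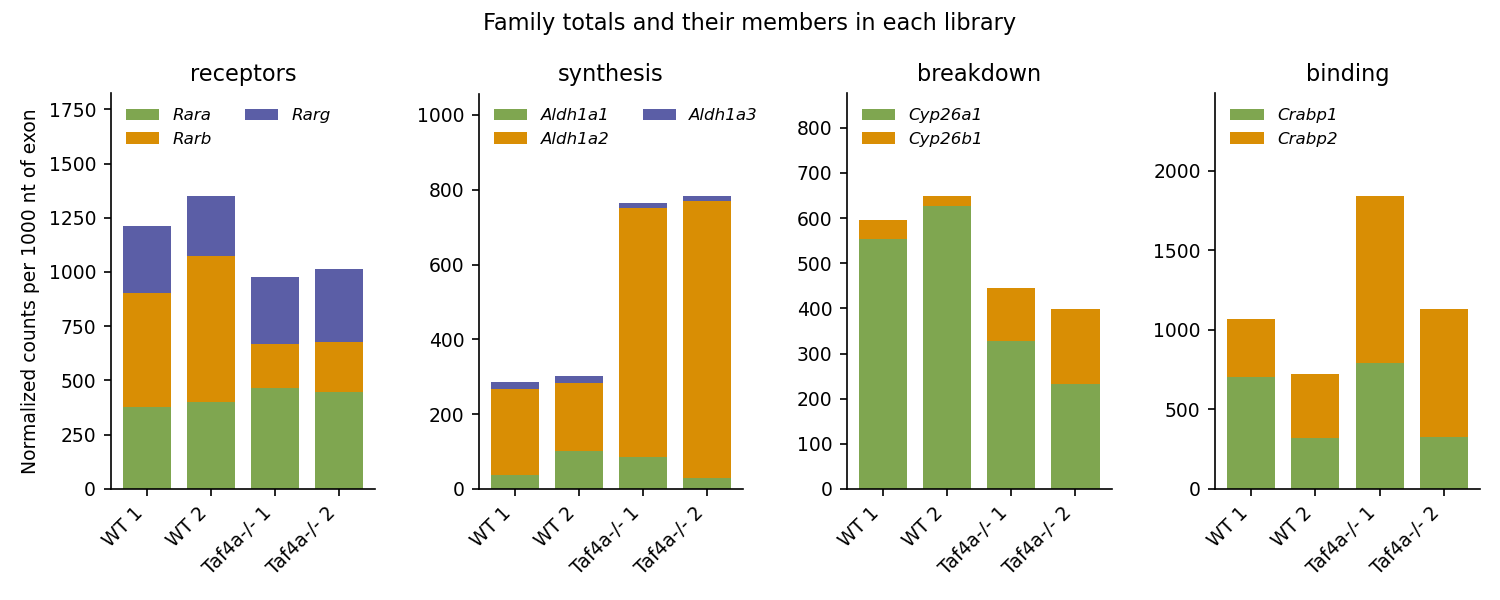
Normalized counts per kilobase of merged exons (linear axis from 0) of each family in each library, with the members stacked. The *Aldh1a* sum lies between 763 and 783 in the libraries labelled *Taf4a*-/- against 286 and 302 in WT, 87.4% and 94.5% of it *Aldh1a2*, and the *Rarb* part of the receptor sum is smaller in both libraries labelled *Taf4a*-/-.

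Over all 10 genes, the order of the mean levels per kilobase changed between genotypes. The order given rests on merged exons and can differ with another length. With the longest transcript, the mean share of *Crabp2* in the sum of both binding proteins in WT was 53.2%, against 44.9% with merged exons. In WT the highest were *Rarb* (597 ± 104), *Cyp26a1* (591 ± 51.1) and *Crabp1* (511 ± 270.0; SD, n = 2 each), followed by *Rara* (391 ± 15.5) and *Crabp2* (382 ± 26.5), and each of these lay within the spread of its neighbour. *Rarg* (295 ± 23.8) and *Aldh1a2* (206 ± 34.7) stood apart from their neighbours in the order. *Aldh1a1* (70.1 ± 45.4), *Cyp26b1* (31.6 ± 13.7) and *Aldh1a3* (18.1 ± 0.86) were the lowest and lay within the spread of their neighbours. In the libraries labelled *Taf4a*-/- the order began with *Crabp2* (925 ± 173), *Aldh1a2* (704 ± 51.6) and *Crabp1* (561 ± 329), then *Rara* (458 ± 13.9), *Rarg* (323 ± 22.7), *Cyp26a1* (280.0 ± 67.8) and *Rarb* (215 ± 19.8), and ended with *Cyp26b1* (142 ± 34.5), *Aldh1a1* (56.7 ± 39.1) and *Aldh1a3* (12.8 ± 1.58). There, neighbours from *Aldh1a2* to *Rara* and from *Rarg* to *Rarb* lay within the spread of one of the pair, and the other neighbours, *Crabp2* and *Aldh1a2* among them, did not.

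Markers of several cell types, but not of all those listed, moved with genotype. Of all genes tested, 11.3% were called higher and 17.3% lower. All 10 cardiomyocyte markers were called lower, and their summed normalized counts were 28544 to 30576 in WT and 2872 to 3200.1 in the libraries labelled *Taf4a*-/-. Of 8 pluripotency markers, 7 were higher (1664 to 4794 in WT and 14740.0 to 17182 in the others). The fibroblast list had 7 of 8 lower (429320.0 to 596620.0 against 48130.0 to 60341), and the macrophage list 7 of 7 (9007 to 10478 against 179 to 196, *C1qa* being listed at 0 in both libraries labelled *Taf4a*-/-). Of 7 epicardial and mesothelial markers, a tissue known to express *Aldh1a2*, 1 was higher and 3 were lower (4704 to 5145 against 3554 to 4416). The higher one was *Tbx18* (126 and 102 in WT against 372 and 389), and the lower ones were *Upk3b* (1788 and 1181 against 633 and 809.6), *Msln* (149 and 293 against 8.81 and 11.1) and *Sema3d* (955 and 794 against 230.1 and 123). At an unadjusted p under 0.05, 2 of this list were higher and 3 lower, and with voom 1 and 3. The other rise was *Wt1* (689 and 1298 in WT against 1599 and 2042), which limma did not call. Of the 7 neural and neural crest markers (680 to 941 against 894 to 966) limma called none (1 higher at an unadjusted p under 0.05, and 1 with voom). The 1 higher at an unadjusted p was *Foxd3* (64.0 and 9.35 in WT against 162.5 and 155.9), and *Sox10* was between 6.23 and 22.5 in all 4 libraries. Likewise limma called none of the 5 endothelial markers (6900.3 to 10150.0 against 5307 to 8539, with 2 lower unadjusted and 1 with voom). The part of these cell types in the differences of the members was not tested.

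The other genes of the pathway were read from a list of 35, of which 29 passed the filter, and 4 of these were higher (13.8%, against 11.3% of all genes tested) and 9 lower (31.0%, against 17.3%), with a median log2 fold change of -0.32. The share of rises was thus near that of all genes. Of the falls, 8 were of genes that act before retinoic acid is made and the other was *Fabp5*, a carrier, while the 4 rises were of coregulators of the receptors. Of 4 transport and storage genes tested, 3 were lower (median -2.49). *Ttr*, which carries the retinol binding protein in blood, had 5299.7 and 5625 normalized counts in WT and 65.6 and 74.1 in the libraries labelled *Taf4a*-/- (log2 fold change -6.27, SE 0.15, adjusted p = 6.0e-05). *Rbp4*, the blood retinol binding protein, had 8851 and 13034 in WT and 991 and 471 in the others (-3.97, SE 0.36, adjusted p = 0.00194). Both are also products of visceral endoderm and liver. The 8 markers of those tissues summed to 61722 to 77847 in WT and 1292 to 1836 in the libraries labelled *Taf4a*-/-, with 7 lower and *Alb* listed at 0 in both of the latter, and their part in the falls of *Ttr* and *Rbp4* was not tested.

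*Scarb1* was the other transport gene called lower. *Stra6*, a membrane receptor for retinol uptake, had 140.3 and 140.3 normalized counts in WT and 86.1 and 56.4 in the libraries labelled *Taf4a*-/- and did not pass (log2 fold change -0.998, SE 0.30, adjusted p = 0.052). Neither *Lrat*, which esterifies retinol, nor *Rbp2* passed the filter.

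Of 10 genes tested that convert retinol, retinaldehyde or carotene, 5 were lower and none was higher with limma (5 and 0 also at an unadjusted p under 0.05 and with voom). These shares were 50% lower and 0% higher, against 17.3% and 11.3% of all genes tested. *Bcmo1*, which cleaves carotene to retinaldehyde, had 93.8 and 63.4 normalized counts in WT and 6.85 and 4.42 in the libraries labelled *Taf4a*-/- (log2 fold change -3.58, SE 0.45, adjusted p = 0.00416). *Dhrs3*, which reduces retinaldehyde back to retinol, had 433 and 673 in WT and 202 and 189 in the others (-1.46, SE 0.25, adjusted p = 0.0104). *Dhrs9* had 34.2 and 35.3 in WT against 0.979 and 6.64 (-3.20, SE 0.72, adjusted p = 0.024), and *Adh1* had 29.8 and 11.4 against 0 and 1.11, which were 0 and 1 reads. *Dhrs9* lost its call without WT replicate 1 (-3.22) or 2 (-3.18), at nearly the same fold change, and *Adh1* without WT replicate 1 (-3.10). With no variance trend in limma the adjusted p of *Dhrs9* was 0.0561.

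*Rdh10*, the main retinol dehydrogenase of the embryo, had 1478 and 1934 normalized counts in WT and 2205 and 1504 in the libraries labelled *Taf4a*-/-. Its values overlapped (log2 fold change 0.11, SE 0.22, adjusted p = 0.741). The enzyme before *Aldh1a2* in the chain was thus not called, while *Aldh1a2* was.

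The receptor partners and coregulators had 4 genes higher and none lower of 12 tested with limma (1 lower at an unadjusted p under 0.05, 0 with voom). That was 33.3% higher and 0% lower, against 11.3% and 17.3% of all genes tested. *Ncoa3*, a coactivator, had 2721 and 2506 normalized counts in WT and 4559 and 4770.1 in the libraries labelled *Taf4a*-/- (log2 fold change 0.84, SE 0.11, adjusted p = 0.00553). *Med1* (0.52, adjusted p = 0.0315) and *Ep300* (0.49, adjusted p = 0.042) also encode coactivators, and *Ncor1* (0.40, adjusted p = 0.0474) a corepressor. Without WT replicate 2, or without either library labelled *Taf4a*-/-, 1 gene of the pathway list was called higher. In these fits the adjusted p was 0.0684, 0.222 and 0.202 for *Ep300*, 0.0727, 0.363 and 0.262 for *Ncor1*, and 0.0903, 0.272 and 0.0715 for *Med1*, which also lost its call without WT replicate 1 (0.0658). With no variance trend the adjusted p of *Ep300*, *Ncor1* and *Med1* was 0.117, 0.121 and 0.1, and with a block for the replicate number *Ep300* (0.0592) and *Ncor1* (0.093) lost their calls. These 2 were also lost with no filter (0.0508 and 0.0605), and *Ncor1* with trimmed mean scaling (0.0514). *Rxra*, a partner of the receptors, had 2550.4 and 2014 in WT and 1377 and 1731 in the others and did not pass (-0.55, SE 0.17, adjusted p = 0.0588). *Rxrb* (-0.08, SE 0.12, adjusted p = 0.647) and *Rxrg* (-0.57, SE 0.61, adjusted p = 0.515) overlapped between genotypes.

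**Figure D3:**
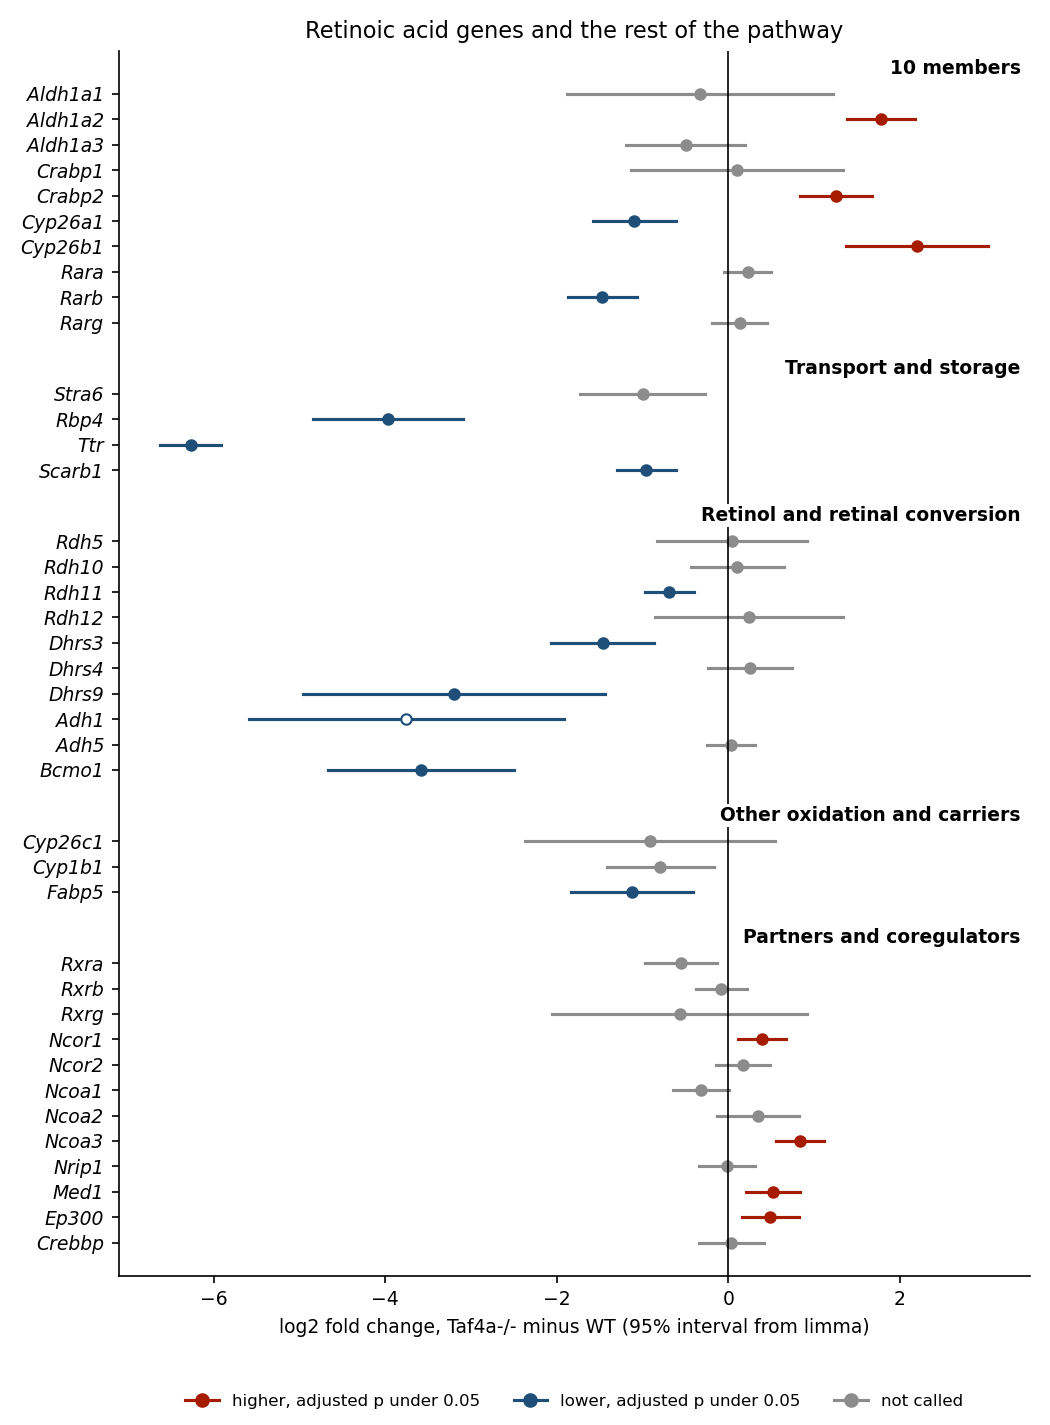
Log2 fold change (*Taf4a*-/- minus WT, points) with the 95% interval from limma (lines) for the 10 retinoic acid genes and the 29 other pathway genes that passed the filter, by role. The transport genes lie at or below -0.96 with *Ttr* at -6.27, and the open point marks *Adh1*, which had 0 and 1 reads in the libraries labelled *Taf4a*-/-.

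Of 22 genes described as responding to retinoic acid, all tested, 9 were higher (40.9%, against 11.3% of all genes tested) and 4 lower (18.2%, against 17.3%, a share near that of all genes). The median log2 fold change was 0.76, against -0.01 over all genes. The list shares *Dhrs3* and *Nrip1* with the pathway list, and the *Hox* genes also respond to other signals of the trunk.

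Of the 8 *Hox* genes, 5 were higher and none lower with limma (62.5% and 0%, against 11.3% and 17.3% of all genes tested). Their median log2 fold change was 1.93. At an unadjusted p under 0.05, 6 were higher and 0 lower, and with voom 4 and 0. *Hoxb1*, a marker of the hindbrain and a direct target of the receptors, had 39.5 and 9.35 normalized counts in WT and 665 and 135 in the libraries labelled *Taf4a*-/- (log2 fold change 3.88, SE 0.90, adjusted p = 0.0257). The 2 libraries of each genotype were far apart, but all values of the libraries labelled *Taf4a*-/- were above those of WT, and the call was lost without WT replicate 2 (2.89, adjusted p = 0.147), with voom (3.92, adjusted p = 0.0665) and with no variance trend in limma (adjusted p = 0.0837). *Hoxa3* had 54.4 and 20.8 in WT and 177 and 170.3 in the others (2.33, SE 0.47, adjusted p = 0.0171; 0.053 with no variance trend). *Hoxb4*, *Hoxb5* and *Hoxd4* were the other *Hox* genes called, while *Hoxa2*, *Hoxa4* and *Hoxb2* were not.

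Of the 14 other response genes, 4 were higher and 4 lower (28.6% each, against 11.3% and 17.3% of all genes tested). *Stra8*, the germ cell gene that retinoic acid induces at the entry to meiosis, had 12.3 and 15.6 normalized counts in WT and 183 and 40.9 in the libraries labelled *Taf4a*-/- (log2 fold change 2.57, SE 0.70, adjusted p = 0.0404). *Cdx1*, a regulator of posterior *Hox* genes, had 3.51 and 5.20 against 35.2 and 21.0 (2.42, SE 0.52, adjusted p = 0.0211). *Meis1* and *Tshz1* were the other genes called higher. *Tgm2*, a transglutaminase long used as a readout of retinoic acid in cultured cells, had 1888 and 3123 against 392 and 384 (-2.64, SE 0.24, adjusted p = 0.00194), the largest fall of the list. *Stra8* lost its call without either WT library or the library labelled *Taf4a*-/- replicate 1 (2.40, 2.73 and 1.498, adjusted p = 0.153, 0.152 and 0.152), and so did *Cdx1* (2.19, 2.65 and 2.06, adjusted p = 0.0531, 0.0604 and 0.128). The call of *Stra8* was also lost with voom (adjusted p = 0.0789) and with no variance trend in limma (0.0971).

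*Foxa1*, an endoderm regulator, had 887 and 1282 normalized counts in WT and 471 and 282 in the libraries labelled *Taf4a*-/- (log2 fold change -1.55, SE 0.29, adjusted p = 0.0144). *Nr2f2*, an orphan receptor of atrial and venous cells, had 3009.7 and 2349 against 1713 and 1855 (-0.58, SE 0.15, adjusted p = 0.0366). With *Tgm2* and *Dhrs3* these are the 4 that were lower. *Foxa1* lost its call without WT replicate 2 (-1.28, adjusted p = 0.0955) and with no variance trend in limma (0.0583). *Nr2f2* lost it without WT replicate 1 (-0.40, adjusted p = 0.0541) or either library labelled *Taf4a*-/- (-0.52 and -0.63, adjusted p = 0.18 and 0.104), and also with a block for the replicate number (0.0505), equal library totals (0.0619) or no variance trend (0.11). Without WT replicate 2, 1 response gene was called higher, and without the library labelled *Taf4a*-/- replicate 2, 5 were.

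**Figure D4:**
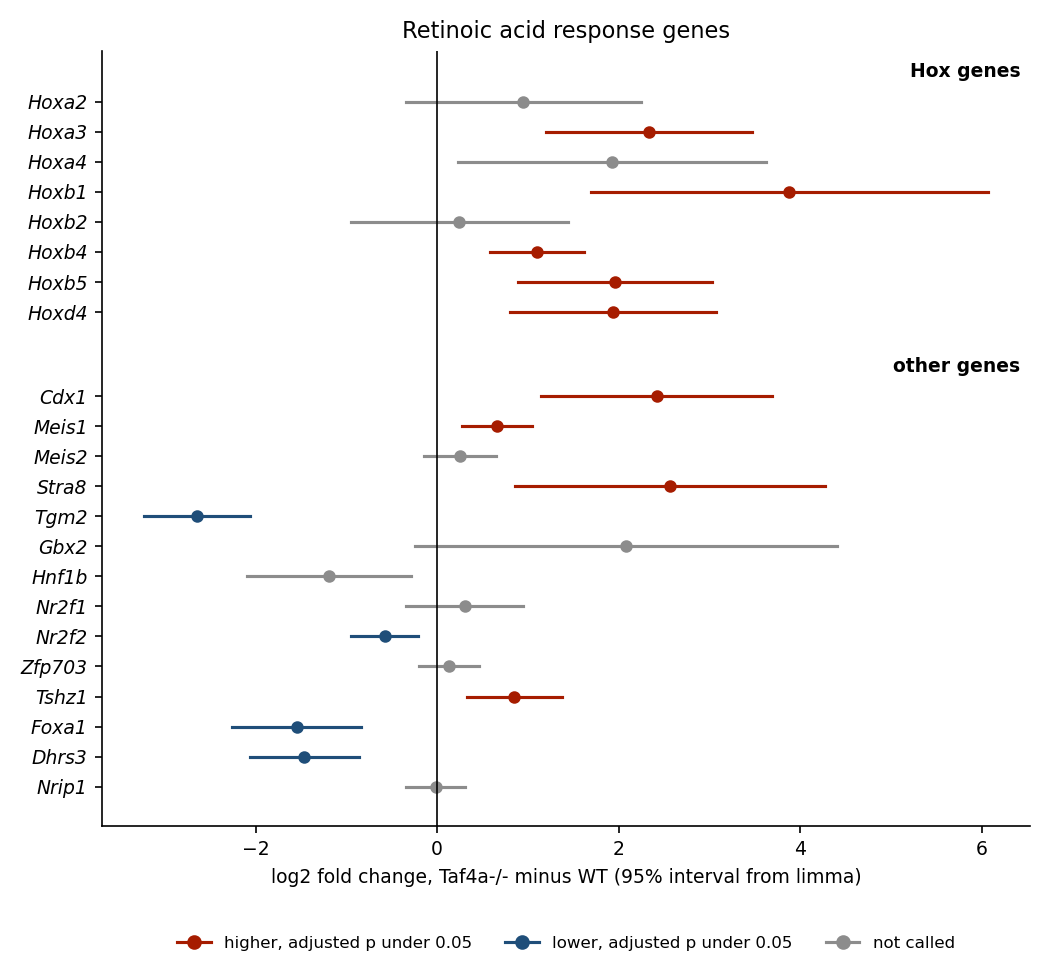
Log2 fold change (*Taf4a*-/- minus WT, points) with the 95% interval from limma (lines) for 22 genes described as responding to retinoic acid, *Hox* genes first. The 8 *Hox* genes run from 0.25 (*Hoxb2*) to 3.88 (*Hoxb1*), and *Tgm2* is the lowest of the others at -2.64.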

How the data were processed

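Polyadenylated RNA of 2 WT and 2 *Taf4a*-/- libraries was made into TruSeq libraries, which do not keep strand, and sequenced. Per the methods and the submitters' processing notes, the authors aligned reads to mm9/NCBI37 with TopHat 1.3.3, used HTSeq 0.5.3p1 and CASAVA 1.8, and deposited counts per gene normalized with DESeq, written with decimal commas. Division by the value of 1 read gave whole reads (within 0.1) for 100% of values, with 21732746 to 27733034 reads per library and size factors of 0.904 to 1.14. All 24637 identifiers were in the NCBIM37 annotation, 99.4% with the same symbol. No member shares exon bases with another gene there. Molecules were not marked, so repeat reads of the same molecule could not be told apart in the counts.

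Here genes with a mean of at least 10 entered limma 3.58.1 (R 4.3.3, lmFit, eBayes with a variance trend, 4.17 prior degrees of freedom) on log2(normalized counts + 1), with Benjamini-Hochberg adjustment over 16926 genes and calls at an adjusted p under 0.05. The scale understates changes of low genes. Levels of different genes were compared per 1000 bases of merged exons. The script was tested on simulated counts with the same dispersion for every gene and no differences tied to replicate number. That run checks the code and not the error rate of the calls made here. The members and lists were chosen with earlier results of these data known, and the lists got no test of their own. Named are all members, *Taf4a*, up to 4 rises and 6 falls of each list among called genes that did not overlap, and *Rxra*, *Rxrb*, *Rxrg*, *Rdh10*, *Dhrs3*, *Stra6* and *Cyp26c1*. *Sox10*, *Foxd3*, *Tbx18*, *Wt1*, *Upk3b*, *Msln*, *Sema3d* and the genes named without values were chosen after their values were seen. *Tfap2a*, of the neural list, was not analysed here, and 2 genes of the pathway and response lists are not reported here and were left out of the counts of those lists. Figures were drawn with matplotlib 3.10.9.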

Additional observations from a re-analysis of the deposited data

How the results depend on the processing

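*Rarb*, *Aldh1a2*, *Cyp26b1* and *Crabp2* kept their direction and call under all 14 alternatives, with log2 fold changes from -1.65 to -1.29, 1.61 to 1.95, 1.75 to 2.66 and 1.07 to 1.45. *Cyp26a1* lost its call at an adjusted p under 0.01, without WT replicate 2 and with no variance trend, so that 1 member was called lower in each, and 1 to 2 when a library was left out. Over all genes, 331 were higher and 1119 lower at an adjusted p under 0.01, 856 and 1741 with no variance trend, and 624 to 2476 and 1222 to 3038 when a library was left out. With quantile normalization, which moved the median of all genes to 0.11, 2695 were higher and 2462 lower. Of the pathway list, 2 genes were higher with no filter, 1 with no variance trend, 1 at 0.01 and 1 to 4 without a library, and 4 were lower at 0.01. Of the response list, 3 were higher and 2 lower with no variance trend, 0 and 1 at 0.01 with limma (10 and 5 at an unadjusted p under 0.05, and 7 and 4 with voom at 0.05), and 1 to 11 higher without a library. *Aldh1a1* changed sign with quantile normalization (0.016). When a library was left out, *Aldh1a1* ranged from -1.09 to 0.43, *Crabp1* from -0.53 to 0.74, *Rxrg* from -1.16 to 0.023 and *Rdh10* from -0.17 to 0.38, none of them called with limma. The cause of these changes was not tested. With a block for the replicate number, 2 pathway genes were higher. Over all genes, deviations of same-numbered libraries correlated at 0.01, and the numbers were not taken as pairs in the main fit. This correlation cannot exclude a shared difference in single genes. With the block the SE was 0.19 against 0.51 for *Crabp1* and 0.32 against 0.90 for *Hoxb1*, but 0.14 against 0.11 for *Rara*. The other counts stayed within 1.5 times. The planned count models were not run, because a check of the unit of the table could not read its decimal commas. Whole reads were recovered all the same, and voom on these reads was chosen after seeing the data. With 2 libraries a genotype, members such as *Aldh1a1* and *Crabp1* have intervals in the main fit too wide to show a change of 2-fold. With the block this width remained for *Aldh1a1* (SE 0.65) but not for *Crabp1*.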

Other observations

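The DR5 search was read against the whole table. Of 31 genes with a DR5 in a RefSeq promoter window, 9 were in the table by symbol or identifier and 6 passed the filter. Of these 6, 4 were lower in the libraries labelled *Taf4a*-/- and none was higher with limma (5 lower and 0 higher at an unadjusted p under 0.05, 4 and 0 with voom), where 17.3% of all genes tested were lower. Besides *Rarb* and *Cyp26a1* these were *Ppbp*, a platelet chemokine, with 98.2 and 70.7 normalized counts in WT and 9.79 and 9.95 in the others (log2 fold change -2.96, adjusted p = 0.00469), and *Blvrb*, biliverdin reductase B, with 465 and 509 against 234 and 272 (-0.94, adjusted p = 0.0141). *Prokr2* (-1.41, adjusted p = 0.0617) and *Hbb-y* (0.71, adjusted p = 0.571) were not called. Of 13 tested genes with a DR2, 1 was higher and 2 were lower (23.1% called, against 28.6% of all genes tested; median log2 fold change -0.09). *Rarb* and *Cyp26a1* were known to be lower when the search was made, and 6 genes are too few to set against the background.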
